A study of Homo sapiens with 15 samples.

Results

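The genes described here are 9 genes of secreted matrix glycoproteins, FN1, TNC, THBS1, SPARC, TGFBI, AMTN, FBN1, FBN2 and EFEMP1, taken by gene symbol from the 18179 genes with expression values in HaCaT cells, an immortalized line of human skin keratinocytes. The RNA-seq libraries fall into 5 groups of 3: untreated control cells, and cells given silver sulfide nanoparticles (Ag2S NPs) or the same particles doped with lithium (Li-doped Ag2S NPs), each at 160 or 320 μg/mL for 24 h. The study asked how these particles, which emit near-infrared light, act on the genes of collagen and the extracellular matrix in skin cells. Whether the 3 libraries of a group are separate cultures is not stated in the labels or methods, and the p-values therefore describe the spread between libraries, which may be technical. Both particle groups of a dose were compared with the same 3 control libraries, and the same controls were used at both doses.

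Glycoproteins of the extracellular matrix carry adhesion sites for integrins, bind collagens and hold growth factors, latent TGF-β among them. Keratinocytes in intact epidermis make few of them beyond the basement membrane. At a wound edge, where keratinocytes migrate, they turn on fibronectin and tenascin-C, and TGF-β is a well-known inducer of fibronectin, thrombospondin-1 and TGFBI.

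The values are FPKM, the fragments of a gene corrected for its length and for the size of the library, so levels of different genes can be compared per length. Differences are on the scale of log2(FPKM + 0.1), which understates the change of genes at low levels, and a gene is said to have risen or fallen where its adjusted p in limma was under 0.05. A gene was tested if its mean FPKM over the 9 libraries of a dose was at least 1, which left 11987 genes at 160 μg/mL and 11903 at 320 μg/mL. Of the 9 members, 8 were tested and FBN1 was not. In RNA from whole cultures, a change in the number of cells that make an mRNA and a change in its amount per cell cannot be told apart.

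The libraries carried the markers of keratinocytes. All 10 listed keratinocyte markers, such as KRT5, KRT14 and TP63, had a mean of at least 1 FPKM in every group, with a summed level of 8993 to 9328 FPKM in control and 24064 to 28315 FPKM with Li-doped Ag2S NPs at 320 μg/mL. The summed level of the fibroblast markers was 13.2 to 16.3 FPKM in control and 2.19 to 7.93 FPKM in the treated libraries. Within it, LUM and DCN had means of 5.19 and 7.08 FPKM in control and at most 1.89 and 2.15 FPKM in a treated group, TWIST2 had 2.11 FPKM in control and 1.96 to 3.03 FPKM in the treated groups, and COL1A2 and COL3A1 were below 0.1 FPKM in every library. The endothelial markers summed to 3.06 to 3.48 FPKM in control, most of it CDH5 (mean 3.11 FPKM), and to 0.16 to 0.61 FPKM in treated libraries, with PECAM1 below 0.1 FPKM throughout. The immune markers summed to 11.1 to 12.2 FPKM in control and to 26.1 to 29.6 FPKM with Li-doped Ag2S NPs at 160 μg/mL, most of it CD68 (means 10.3 and 26.6 FPKM), and to 9.78 to 22.0 FPKM in the other treated groups. The melanocyte markers summed to 1.86 to 1.96 FPKM in control and 1.93 to 3.37 FPKM in treated libraries, with DCT below 0.1 FPKM throughout. The part of these shifts in the results was not tested. Replicate 15 of Li-doped Ag2S NPs at 320 μg/mL stood apart, with FPKM values that sum to 698579 against 626624 and 631117 in replicates 13 and 14. So did replicate 6 of Ag2S NPs at 160 μg/mL, with 648712 against 589969 and 607082 in replicates 4 and 5, and it had the lowest FN1, TNC and THBS1 of its group. Without either library, the numbers of members that rose and fell were the same in each of the comparisons that use its group. Over all tested genes the median log2 difference from control was -0.137 and -0.194 with undoped and Li-doped particles at the lower dose, and -0.185 and -0.256 at the higher dose. With libraries scaled to a common median, the genes that rose and fell numbered 2057 and 1535 in place of 1373 and 2847 (Ag2S NPs at 160 μg/mL), 3658 and 3612 in place of 2715 and 4869 (Li-doped at 160), 2868 and 2555 in place of 1923 and 4309 (Ag2S NPs at 320), and 3368 and 3090 in place of 2018 and 5313 (Li-doped at 320).

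Against control, 6 of the 8 tested members rose and none fell with Ag2S NPs at 160 μg/mL, where 11.5% of all tested genes rose and 23.8% fell. With Li-doped Ag2S NPs at 160 μg/mL, 5 rose and 2 fell, against 22.6% and 40.6% of all tested genes. At 320 μg/mL, 6 members rose and 2 fell with Ag2S NPs (16.2% and 36.2% of all tested genes), and 6 rose and 1 fell with Li-doped Ag2S NPs (17% and 44.6%). The median log2 difference of the 8 tested members in these comparisons, in the same order, was 1.29, 0.58, 1.93 and 1.33. FN1, TNC, THBS1, SPARC and TGFBI rose in all 4, AMTN rose in 3 and fell in 1, and EFEMP1 fell in 3. FBN2 fell only with Ag2S NPs at 320 μg/mL. The members were chosen with earlier results of these data known, so their counts and medians are not independent of that choice. The paper lists FN1, TNC, SPARC and AMTN among its matrix genes with raised expression in these cells, under a fold change above 2. That list also prints the symbol TGFB1 with the description of TGFBI. The paper's heatmap of these genes covers 320 μg/mL only.

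**Figure D1:**
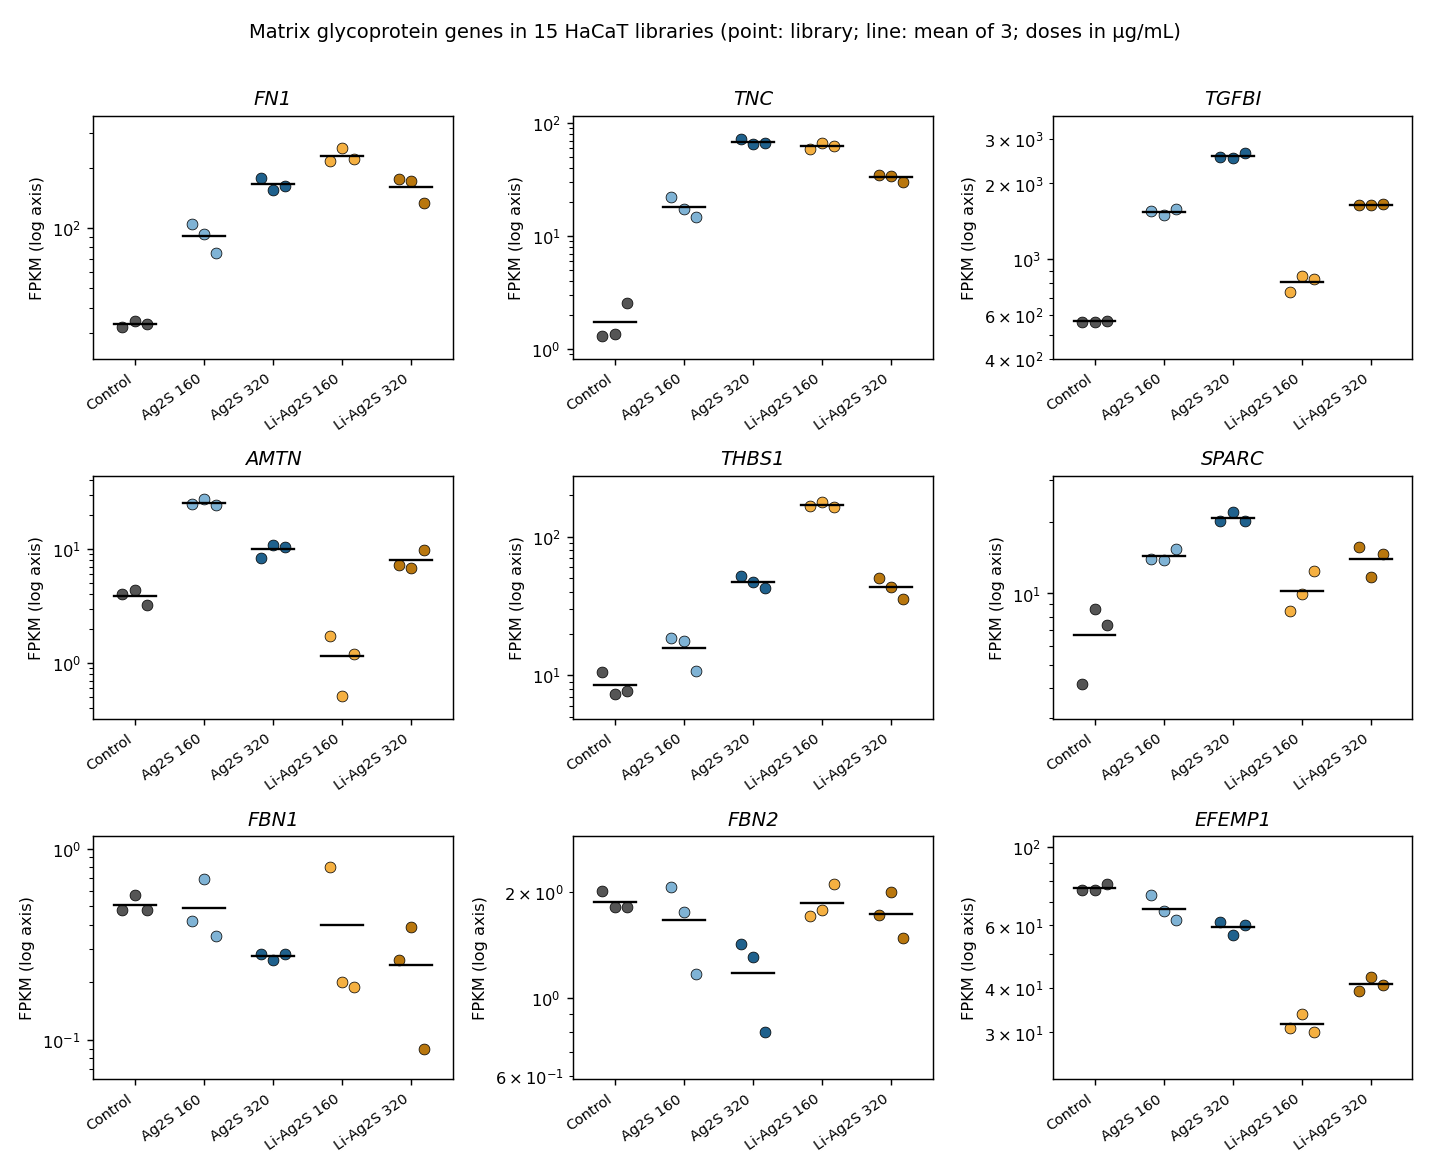
FPKM of each of the 9 genes (log scale on the vertical axis) in the 15 libraries, by group, with 1 point per library and a line at the group mean. TGFBI lies between 561.01 and 2640.18 FPKM and is the most abundant member in every library, and FBN1 does not exceed 0.80 FPKM in any.

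FN1, fibronectin, is the adhesive glycoprotein that cells assemble into fibrils through integrin α5β1 (gene ENSG00000115414, chr2:215360440-215436172, minus strand, GRCh38). It stood at 31.83, 34.15 and 33.27 FPKM in the control libraries, at 104.47, 93.62 and 74.78 FPKM with Ag2S NPs at 160 μg/mL, and at 178.55, 154.27 and 162.96 with Ag2S NPs at 320 μg/mL. With Li-doped Ag2S NPs it stood at 215.88, 251.46 and 220.69 FPKM at 160 μg/mL and at 174.96, 170.96 and 133.57 FPKM at 320 μg/mL. All 12 treated libraries lay above the 3 controls, the Li-doped group at 160 μg/mL was above every other library, and the groups at 320 μg/mL overlapped. Mean FN1 levels were 33.1 ± 1.17 FPKM in control (SD, n = 3), 91.0 ± 15 and 165 ± 12.3 with Ag2S NPs at 160 and 320 μg/mL, and 229 ± 19.3 and 160 ± 22.8 with Li-doped Ag2S NPs. FN1 rose by 1.44 ± 0.11 on the log2 scale (SE, limma adjusted p = 1.06e-05) with Ag2S NPs at 160 μg/mL and by 2.79 ± 0.11 (adjusted p = 7.53e-09) with Li-doped Ag2S NPs. At 320 μg/mL the rise was 2.32 ± 0.1 (adjusted p = 1.44e-08) and 2.26 ± 0.1 (adjusted p = 1.48e-08).

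The FN1 mRNA is spliced into forms with and without the EDA exon, which plasma fibronectin lacks and cellular fibronectin of wounds and fibrotic tissue carries. The exon lies at chr2:215380811-215381080 on the minus strand of GRCh38, has 270 coding bases and is exon 33 of transcript FN1-201. It is shown because the share of FN1 that carries it was highest in the group with the highest FN1, with capitals at the purine-rich element GAAGAAGA that begins at its base 156 and is known as a splicing enhancer of this exon.
FN1 EDA exon: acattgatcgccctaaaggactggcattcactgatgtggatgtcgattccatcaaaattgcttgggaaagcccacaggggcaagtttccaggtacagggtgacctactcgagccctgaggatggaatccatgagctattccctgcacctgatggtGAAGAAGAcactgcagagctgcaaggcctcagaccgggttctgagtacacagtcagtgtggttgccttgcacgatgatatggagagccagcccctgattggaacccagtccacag
Transcripts with the exon (4) made up 30.5, 35 and 30.4% of the FPKM of the 9 transcripts that span it in the control libraries. In cells given Ag2S NPs at 160 μg/mL the share was 32.5, 25.4 and 30.3%, and at 320 μg/mL it was 34.0, 32.2 and 30.4%, and both groups overlapped control. Li-doped Ag2S NPs gave 40.6, 38.1 and 37.3% at 160 μg/mL, above all other libraries, and 24.4, 25.6 and 25.9% at 320 μg/mL, below the controls. The transcripts with EDA held 83.1 FPKM in the Li-doped group at 160 μg/mL and 9.84 FPKM in control, and those without it 132 and 21.0 FPKM. The split among transcripts is an estimate by Cufflinks, so the shares are given with no test. The EDB exon (chr2:215392931-215393203) had mean shares of 8.27% in control and 6.7 to 8.68% in the treated groups. A 267-base exon at chr2:215372109-215372375 had mean shares of 83.6% in control and 79.7 and 76.6% with Ag2S NPs at 160 and 320 μg/mL. With Li-doped Ag2S NPs its mean share was 75.2% at both doses. Only Ag2S NPs at 160 μg/mL overlapped control for it. A 192-base form of this exon had mean shares of 64.3% in control and 58.8 to 62.9% in the treated groups.

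**Figure D2:**
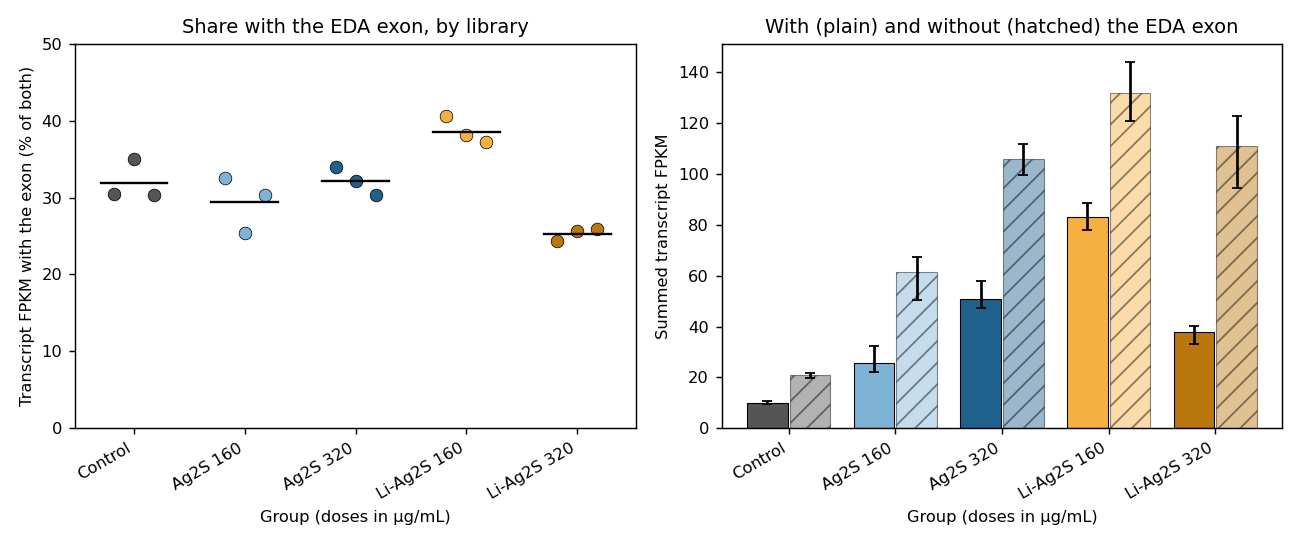
Share of FN1 transcript FPKM with the EDA exon (percent, vertical axis) in each of the 15 libraries by group, with 1 point per library. The 3 libraries of Li-doped Ag2S NPs at 160 μg/mL lie between 37.3 and 40.6%, and those at 320 μg/mL between 24.4 and 25.9%.

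TNC, tenascin-C, is a 6-armed matricellular protein that is scarce in resting adult skin and appears in wounds (ENSG00000041982, chr9:115019578-115118257, minus strand). Its control libraries held 1.29, 1.37 and 2.53 FPKM, against 22.33, 17.22 and 14.84 with Ag2S NPs and 58.78, 66.54 and 62.79 with Li-doped Ag2S NPs at 160 μg/mL. At 320 μg/mL the values were 72.72, 65.17 and 67.45 with Ag2S NPs and 35.01, 34.25 and 30.24 with Li-doped Ag2S NPs. No treated library came near the controls, and the order of the particles was opposite at the 2 doses. The ratio of mean FPKM to control for undoped and Li-doped particles was 10.5 and 36.2 at the lower dose, and 39.6 and 19.2 at the higher dose. In limma, TNC rose with undoped and Li-doped particles by 3.36 ± 0.23 (adjusted p = 3.64e-06) and 5.16 ± 0.23 (adjusted p = 1.41e-08) at 160 μg/mL, and by 5.29 ± 0.2 (adjusted p = 7.1e-09) and 4.24 ± 0.2 (adjusted p = 2.23e-08) at 320 μg/mL. TNC has several alternative exons of 273 bases. For that at chr9:115048260-115048532 the mean share of the TNC transcripts that span it was 39.8 to 41.6% in the 4 treated groups. In control, with TNC near 1 FPKM, that share was 61.2, 27.9 and 12.6% in the 3 libraries and no level can be given for it. Exons at chr9:115059730-115060002 and chr9:115063796-115064068 varied more, with shares of 74.9 to 97.8% in single treated libraries. Mean shares in the treated groups were 39.9 to 41.7% for the exon at chr9:115062917-115063189. They were 94.7 to 99.6% for those at chr9:115046410-115046682, chr9:115057153-115057425 and chr9:115064647-115064919.

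THBS1, thrombospondin-1, is a 3-chain glycoprotein that binds CD36 and CD47 and can release TGF-β from its latent form (ENSG00000137801, chr15:39581079-39599466, plus strand). It was at 10.54, 7.35 and 7.67 FPKM in control, 18.51, 17.78 and 10.78 with Ag2S NPs at 160 μg/mL, and 52.48, 46.95 and 42.69 with Ag2S NPs at 320 μg/mL. In the Li-doped groups it was at 166.07, 179.06 and 162.46 FPKM at 160 μg/mL and at 50.35, 43.58 and 35.27 FPKM at 320 μg/mL. Replicate 6 of Ag2S NPs at 160 μg/mL, at 10.78 FPKM, was close to control replicate 1, and no treated library was below a control. THBS1 rose with Li-doped Ag2S NPs by 4.31 ± 0.19 at 160 μg/mL (adjusted p = 1.75e-08), a ratio of means of 19.9, and by 2.33 ± 0.15 at 320 μg/mL (adjusted p = 3.92e-07). With Ag2S NPs it rose by 0.85 ± 0.19 (adjusted p = 0.00755) and 2.48 ± 0.15 (adjusted p = 2.59e-07). The library kit did not mark strand, so reads of FSIP1 and of the antisense gene AC037198.2, which share exon bases with THBS1, cannot be told from THBS1. FSIP1 had at most 2.43 FPKM, and no level was computed for AC037198.2.

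SPARC, osteonectin, is a collagen-binding protein made in remodelling tissue (ENSG00000113140, chr5:151661096-151687165, minus strand). Control libraries held 4.19, 8.62 and 7.36 FPKM, and libraries with Ag2S NPs held 13.89, 13.84 and 15.33 FPKM at 160 μg/mL and then 20.11, 21.96 and 20.20 FPKM at 320 μg/mL. Those with Li-doped Ag2S NPs held 8.48, 9.91 and 12.38 FPKM at 160 μg/mL and 15.59, 11.72 and 14.67 FPKM at 320 μg/mL. The Li-doped group at 160 μg/mL overlapped control, and the other treated groups did not. SPARC rose by 1.14 ± 0.23 (adjusted p = 0.00413) and 1.67 ± 0.22 (adjusted p = 7.73e-05) with Ag2S NPs at 160 and 320 μg/mL and by 1.1 ± 0.22 (adjusted p = 0.0012) with Li-doped Ag2S NPs at 320 μg/mL. The rise of 0.65 ± 0.23 with Li-doped Ag2S NPs at 160 μg/mL (adjusted p = 0.0305) was 0.34 without control replicate 1 (adjusted p = 0.096). Reads of the antisense gene CLMAT3, which shares exon bases with SPARC, cannot be told from SPARC. By the Cufflinks estimate, SPARC-202, a transcript annotated as keeping an intron, held 40.3 to 61.8% of SPARC transcript FPKM. The coding transcript SPARC-201 had a mean of 0.723 FPKM in control and 1.52 to 2.51 FPKM in the treated groups. None of 3 tested SPARC transcripts was called with either particle at 160 μg/mL. At 320 μg/mL, 2 of 4 rose with Ag2S NPs and 1 with Li-doped Ag2S NPs.

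TGFBI, the TGF-β-induced protein that links collagens and integrins, was the member with the highest level (ENSG00000120708, chr5:136028895-136063818, plus strand). Control libraries held 563.71, 561.01 and 568.22 FPKM, those with Ag2S NPs 1555.41, 1500.18 and 1583.62 FPKM at 160 μg/mL and then 2542.94, 2526.14 and 2640.18 FPKM at 320 μg/mL. Those with Li-doped Ag2S NPs held 740.49, 853.70 and 830.93 FPKM at 160 μg/mL and 1646.97, 1641.77 and 1653.68 FPKM at 320 μg/mL. No 2 groups overlapped, and the order from the top was Ag2S NPs at 320 μg/mL, Li-doped at 320, Ag2S NPs at 160, Li-doped at 160 and control. TGFBI rose by 1.45 ± 0.07 (adjusted p = 3.53e-07) and 0.52 ± 0.07 (adjusted p = 6.91e-05) at 160 μg/mL, and by 2.19 ± 0.06 (adjusted p = 3.22e-10) and 1.55 ± 0.06 (adjusted p = 4.07e-09) at 320 μg/mL, for undoped and Li-doped particles. Its rank among all genes of a library was 150 to 154 in control and 18 to 27 with Ag2S NPs at 320 μg/mL.

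AMTN, amelotin, is a protein of the enamel organ and of the gum epithelium that joins the tooth (ENSG00000187689, chr4:70518540-70532742, plus strand). It was at 4.02, 4.37 and 3.25 FPKM in control and at 24.72, 27.47 and 24.58 FPKM with Ag2S NPs at 160 μg/mL. With Li-doped Ag2S NPs at 160 μg/mL it was at 1.72, 0.51 and 1.21 FPKM, below every control library. At 320 μg/mL it was at 8.43, 10.85 and 10.50 FPKM with Ag2S NPs and 7.20, 6.89 and 9.80 FPKM with Li-doped Ag2S NPs, above control and overlapping each other. AMTN rose by 2.7 ± 0.32 with Ag2S NPs at 160 μg/mL (adjusted p = 0.000172), fell by 1.8 ± 0.32 with Li-doped Ag2S NPs at 160 μg/mL (adjusted p = 0.000527), and rose by 1.33 ± 0.17 (adjusted p = 7.26e-05) and 1.01 ± 0.17 (adjusted p = 0.000441) at 320 μg/mL. Of 12 listed genes of its family, the secretory calcium-binding phosphoproteins, 2 were in the tables used here and neither reached the level for a test.

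EFEMP1, fibulin-3, is an elastic fiber protein of connective tissue and basement membranes (ENSG00000115380, chr2:55865967-55924139, minus strand). It went from 75.36, 75.72 and 78.37 FPKM in control to 30.83, 33.80 and 30.19 with Li-doped Ag2S NPs at 160 μg/mL and 39.33, 43.08 and 40.85 with Li-doped Ag2S NPs at 320 μg/mL. With Ag2S NPs it was at 72.86, 65.70 and 62.10 FPKM at 160 μg/mL and 61.29, 56.58 and 60.26 FPKM at 320 μg/mL. Every treated library was below every control library, and both Li-doped groups were below both undoped groups. EFEMP1 fell by 1.27 ± 0.08 (adjusted p = 1.52e-07) and 0.9 ± 0.06 (adjusted p = 5.91e-07) with Li-doped Ag2S NPs at 160 and 320 μg/mL, and by 0.37 ± 0.06 (adjusted p = 0.000586) with Ag2S NPs at 320 μg/mL, where libraries scaled to a common median gave -0.18 (adjusted p = 0.0436). Ag2S NPs at 160 μg/mL gave -0.2 ± 0.08 (adjusted p = 0.0679).

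FBN1 and FBN2, the fibrillins that form the microfibrils on which elastin and latent TGF-β are held, were the members with the lowest levels (ENSG00000166147, chr15:48408306-48645849, and ENSG00000138829, chr5:128257909-128659185, both minus strand). FBN1 lay between 0.09 and 0.80 FPKM in the 15 libraries, and its groups overlapped with their neighbors in level. In control it was at 0.48 to 0.57 FPKM. At 320 μg/mL it was at 0.26 to 0.28 FPKM with Ag2S NPs and 0.09 to 0.39 FPKM with Li-doped Ag2S NPs, below all controls. With no filter on level the adjusted p of FBN1 against control ran from 0.0527 to 0.929. FBN2 was at 2.01, 1.81 and 1.81 FPKM in control, and at 1.42, 1.31 and 0.80 FPKM with Ag2S NPs at 320 μg/mL, the group with the lowest mean, which did not overlap control. The difference was -0.67 ± 0.25 (adjusted p = 0.042), with -0.43 (adjusted p = 0.16) without replicate 9, at 0.80 FPKM, -0.49 (adjusted p = 0.105) with scaled libraries, and -0.41 (adjusted p = 0.036) with a pseudocount of 1. In the other 9 treated libraries FBN2 ran from 1.17 to 2.11 FPKM, and its 95% interval for the log2 difference from control was -0.72 to 0.33 and -0.54 to 0.51 with undoped and Li-doped particles at 160 μg/mL and -0.66 to 0.43 with Li-doped Ag2S NPs at 320 μg/mL.

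**Figure D3:**
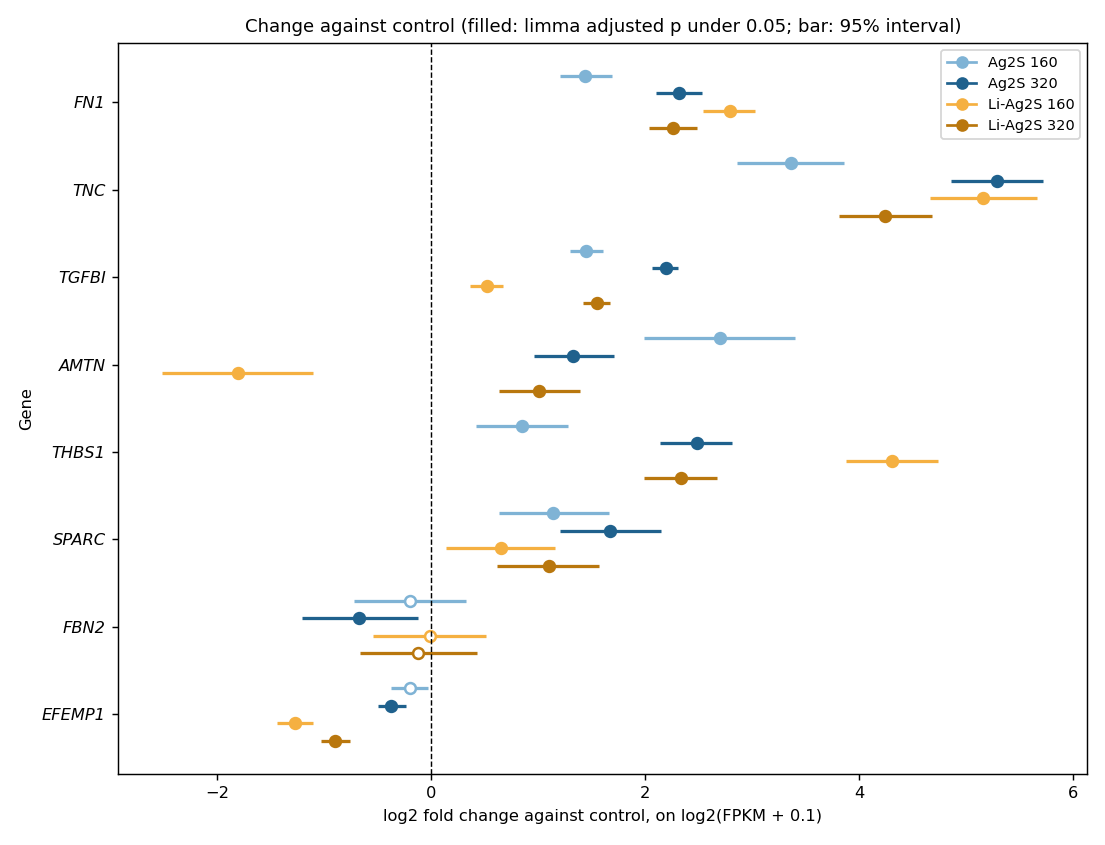
Log2 difference from control (horizontal axis, log2(FPKM + 0.1), with 95% intervals) of the 8 tested members for each particle and dose. TNC has the largest difference of the members in all 4 comparisons, at 3.36 to 5.29, and AMTN with Li-doped Ag2S NPs at 160 μg/mL is at -1.8.

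Doping was tested by setting Li-doped against undoped Ag2S NPs at the same dose, 1 pair at each of 2 doses. The paper reports that the particles also differed in hydrodynamic diameter. Lithium and other differences between the 2 preparations cannot be told apart here. At 160 μg/mL, 3 of the 8 tested members were higher with Li-doped particles, 3 were lower and 2 did not pass the test, where 21.4% of all tested genes were higher and 29% lower. The median log2 difference was -0.16 over the members and -0.052 over all tested genes. THBS1 was higher by 3.46 ± 0.19 on the log2 scale (adjusted p = 2.05e-07), TNC by 1.8 ± 0.23 (adjusted p = 7.26e-05) and FN1 by 1.34 ± 0.11 (adjusted p = 3.45e-06). AMTN fell by 4.5 ± 0.32 (adjusted p = 1.11e-06), from a mean of 25.6 to 1.15 FPKM, TGFBI by 0.94 ± 0.07 (adjusted p = 1.43e-06) and EFEMP1 by 1.08 ± 0.08 (adjusted p = 1.13e-06). For SPARC the 95% interval of the difference was -1.01 to 0.02 and for FBN2 -0.34 to 0.71.

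At 320 μg/mL, none of the 8 tested members was higher with Li-doped particles and 3 were lower, where 10.1% of all tested genes were higher and 16.1% lower. The median difference was -0.43 over the members and -0.083 over all tested genes. TNC fell by 1.04 ± 0.2 (adjusted p = 0.00372), TGFBI by 0.64 ± 0.06 (adjusted p = 2.97e-05) and EFEMP1 by 0.53 ± 0.06 (adjusted p = 0.000239). FN1 and THBS1, which were higher with Li-doped particles at the lower dose, had intervals of -0.27 to 0.16 and -0.49 to 0.19. The intervals were -0.7 to 0.05 for AMTN, -1.05 to -0.1 for SPARC (adjusted p = 0.0723) and 0 to 1.09 for FBN2.

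**Figure D4:**
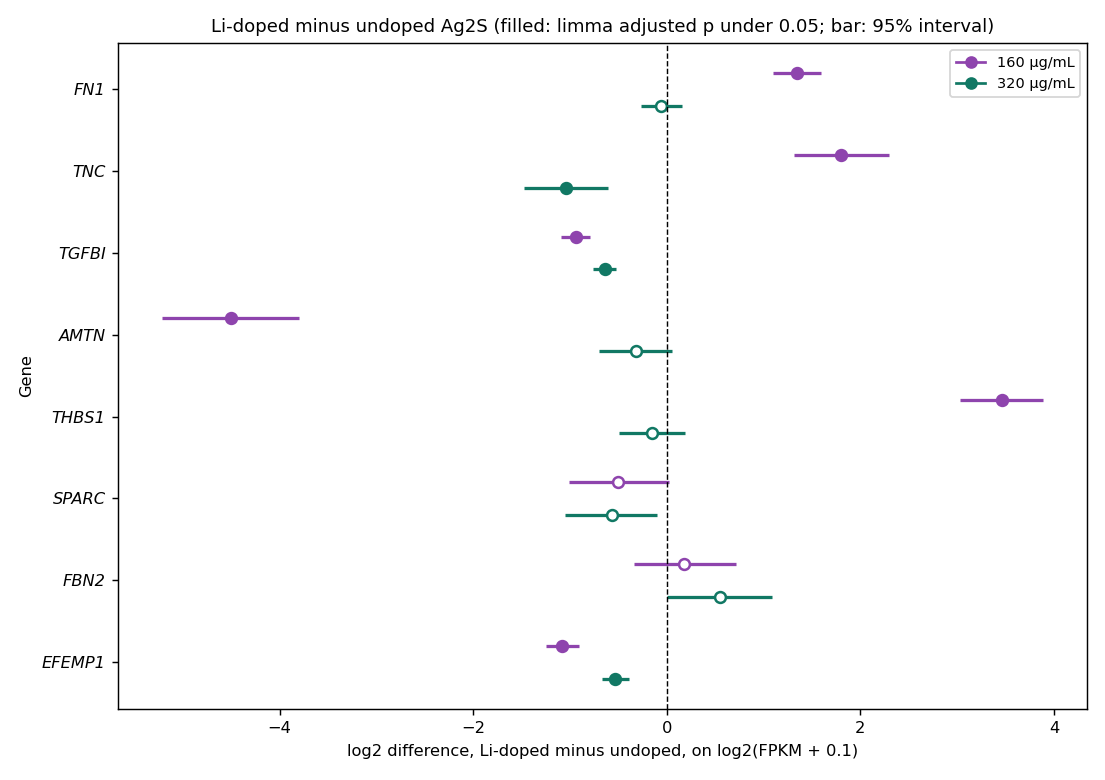
Log2 difference of Li-doped from undoped Ag2S NPs (with 95% intervals) for the 8 tested members at 160 and 320 μg/mL. THBS1 is at 3.46 and AMTN at -4.5 at the lower dose, and both intervals reach 0 at the higher dose.

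The step from 160 to 320 μg/mL, fitted over all 15 libraries and 11952 genes, moved 5 of the 8 tested members with Ag2S NPs (12.5% of all tested genes) and 6 with Li-doped Ag2S NPs (42.8%). With Ag2S NPs, TNC rose by 1.93 ± 0.19 (adjusted p = 1.13e-05), THBS1 by 1.62 ± 0.19 (adjusted p = 4.7e-05), FN1 by 0.87 ± 0.12 (adjusted p = 0.000232) and TGFBI by 0.73 ± 0.06 (adjusted p = 3.32e-06), and AMTN fell by 1.36 ± 0.28 (adjusted p = 0.00551). Between the same doses of Li-doped Ag2S NPs, THBS1 fell by 1.99 ± 0.19 (adjusted p = 6.81e-07), TNC by 0.92 ± 0.19 (adjusted p = 0.00126) and FN1 by 0.53 ± 0.12 (adjusted p = 0.0022), while AMTN rose by 2.81 ± 0.28 (adjusted p = 1.54e-06), TGFBI by 1.03 ± 0.06 (adjusted p = 7.56e-09) and EFEMP1 by 0.38 ± 0.07 (adjusted p = 0.000665). For FN1, TNC and THBS1 the larger dose had the higher level with undoped and the lower level with Li-doped particles, and AMTN had the opposite order.

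The difference between the particles in this effect of dose passed its own test for 6 of the 8 tested members, where 39.7% of all tested genes passed. The values, Li-doped minus undoped, were 4.18 ± 0.4 for AMTN (adjusted p = 1.19e-06), -3.61 ± 0.26 for THBS1 (adjusted p = 6.93e-08), -2.85 ± 0.27 for TNC (adjusted p = 1.04e-06), -1.4 ± 0.17 for FN1 (adjusted p = 1.1e-05), 0.55 ± 0.1 for EFEMP1 (adjusted p = 0.000617) and 0.3 ± 0.09 for TGFBI (adjusted p = 0.0167). For TGFBI the value was 0.24 without replicate 10 of Li-doped Ag2S NPs at 160 μg/mL (adjusted p = 0.0502). SPARC gave -0.08 ± 0.29 and FBN2 0.36 ± 0.35, with adjusted p of 0.852 and 0.441.

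The makeup of this glycoprotein mRNA pool also differed between groups. The 9 genes summed to 693 to 703 FPKM in control, 1738 to 1815 and 2883 to 3005 with Ag2S NPs at 160 and 320 μg/mL, and 1225 to 1397 and 1920 to 1971 with Li-doped particles at these doses. TGFBI made up 80.7 to 81.3% of that sum in control, 83.5 to 88.6% in 3 of the treated groups and 60.5 to 62.8% with Li-doped Ag2S NPs at 160 μg/mL, where FN1 made up 16.7 to 18%. The ratio of FN1 to TGFBI was 0.0565 to 0.0609 in control, 0.0472 to 0.0672 and 0.0611 to 0.0702 with Ag2S NPs at 160 and 320 μg/mL, 0.266 to 0.295 with Li-doped Ag2S NPs at 160 μg/mL and 0.0808 to 0.106 at 320 μg/mL. Both Li-doped groups lay above the range of the other 3. The ratio of THBS1 to FN1 was 0.712 to 0.769 with Li-doped Ag2S NPs at 160 μg/mL and at most 0.331 in any other library. These ratios are within a library and are given with no test.

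**Figure D5:**
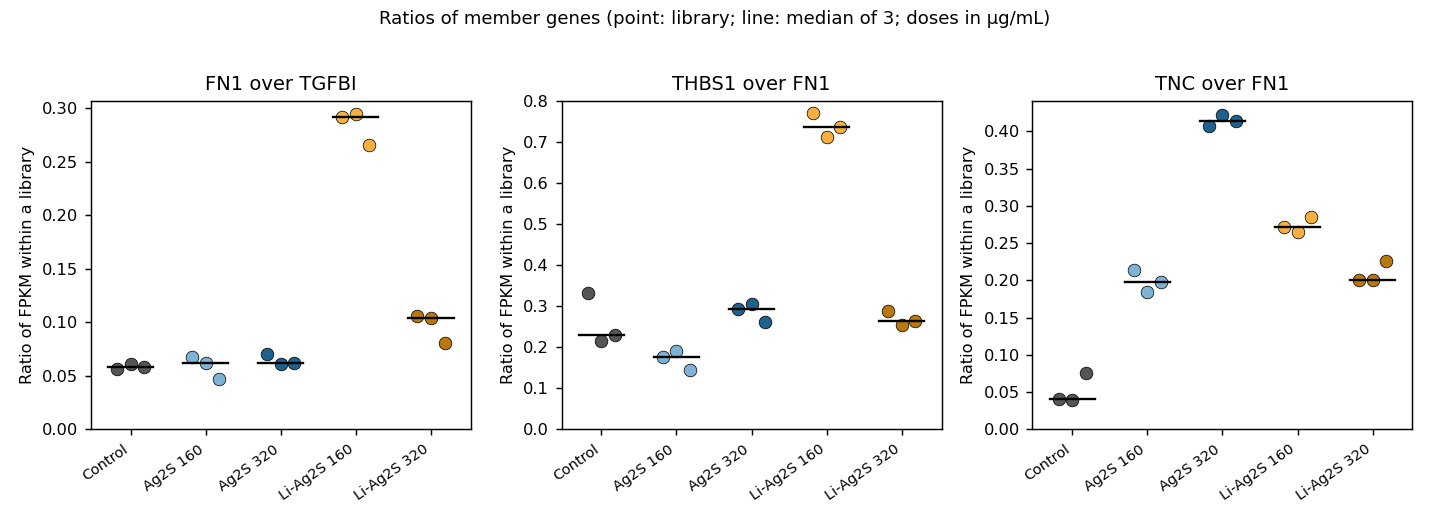
Ratios of FPKM within each library (vertical axis, linear scale) for FN1 to TGFBI, THBS1 to FN1 and TNC to FN1, by group, with 1 point per library. The FN1 to TGFBI ratio with Li-doped Ag2S NPs at 160 μg/mL is 0.266 to 0.295 and is at most 0.106 elsewhere.

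At the level of transcripts, 15 of 38 tested transcripts of the members rose with Ag2S NPs at 160 μg/mL, where 2.66% of all tested transcripts rose, and 18 rose with Li-doped Ag2S NPs, where 9.95% did. At 320 μg/mL, 28 of 41 rose with Ag2S NPs (6.51% of all) and 25 with Li-doped Ag2S NPs (7.21%). With Ag2S and Li-doped Ag2S NPs, 0 and 5 fell at 160 μg/mL, where 980 and 5744 of all 32692 tested transcripts fell. The higher dose gave 1 and 2 fallen, where 3580 and 5074 of all 32492 fell. The count of 15 was 8 without control replicate 3 or Ag2S replicate 5 and 9 without control replicate 1. Transcripts of 1 gene share its reads and are not independent. The FN1 transcript with the highest level in control, FN1-211, went from a mean of 13.1 FPKM to 36.9 and 54.4 with undoped and Li-doped particles at 160 μg/mL, and to 47.3 and 59.5 FPKM at 320 μg/mL.

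The promoters of FN1, THBS1 and AMTN are shown because FN1 and THBS1 rose and AMTN fell with Li-doped Ag2S NPs at 160 μg/mL. The letters are those of RefSeq on GRCh38.p14, cut to the bases before the first exon of GENCODE, on the strand of the gene. They were searched on both strands for the TATA-box letters TATAA, the AP-1 site TGANTCA, the cyclic AMP response element TGACGTCA, the SMAD-binding letters CAGACA, the GC box GGGCGG and the TEAD site GGAATG. Capitals mark each match, and adjoining GC boxes in FN1 share their run of capitals.
FN1, chr2:215436173-215436318: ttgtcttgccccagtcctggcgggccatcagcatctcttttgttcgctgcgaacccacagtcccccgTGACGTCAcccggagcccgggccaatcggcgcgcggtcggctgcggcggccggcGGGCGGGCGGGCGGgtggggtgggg
THBS1, chr15:39580829-39581078: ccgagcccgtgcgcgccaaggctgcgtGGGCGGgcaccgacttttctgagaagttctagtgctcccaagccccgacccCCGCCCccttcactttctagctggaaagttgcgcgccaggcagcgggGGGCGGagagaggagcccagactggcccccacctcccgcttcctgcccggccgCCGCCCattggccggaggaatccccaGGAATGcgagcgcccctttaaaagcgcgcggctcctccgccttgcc
AMTN, chr4:70518319-70518539: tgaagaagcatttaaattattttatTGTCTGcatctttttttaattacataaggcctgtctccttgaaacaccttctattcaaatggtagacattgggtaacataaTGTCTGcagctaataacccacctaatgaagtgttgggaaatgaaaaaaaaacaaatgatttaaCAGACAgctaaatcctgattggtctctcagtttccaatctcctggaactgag
FN1 held TGACGTCA, found in 0.421% of 35116 promoters in a window of the same place and length, and 3 GC boxes, where 25.1% of promoters held at least 1. THBS1 held 4 GC boxes, where 42.6% of promoters held at least 1 in its longer window, and GGAATG, found in 11.9%. AMTN held CAGACA 3 times, and 12.3% of promoters held it at least once. TGFBI held none of the 6 motifs in its 157 bases. TNC, which also rose with Li-doped Ag2S NPs at 160 μg/mL, held 1 GC box in 150 bases and no other motif. FBN2, which was not called there, held 3 GC boxes in 250 bases. FBN1, which was not tested, held GGAATG in 250 bases. The promoters of SPARC and EFEMP1 were not searched. A match describes the letters and is not evidence of binding.

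The genes whose 4 differences from control were most like those of a member were ranked by the root mean square difference over those 4 values, among 11814 genes tested at both doses. For FN1 they were CILP2 (0.104), CAPN5 (0.156) and CA12 (0.168), for TGFBI COL22A1 (0.13), TMC8 (0.171) and TPM1 (0.174), and for SPARC ENDOD1 (0.0776), TPST1 (0.143) and COL4A1 (0.15). AMTN had no close match, with CALML5 at 0.624, ITGB6 at 0.83 and WNT4 at 0.898. THBS1 was most like HEPHL1 (0.354), OLFM1 (0.376) and IL1B (0.395) and EFEMP1 most like MDK (0.0663), DYNC2LI1 (0.0794) and TDRD3 (0.0866).

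Other matrix genes were taken as lists. Among all tested genes, 11.5% rose and 23.8% fell with Ag2S NPs at 160 μg/mL, and 22.6% and 40.6% with Li-doped Ag2S NPs. At 320 μg/mL these shares were 16.2% and 36.2% with Ag2S NPs and 17% and 44.6% with Li-doped Ag2S NPs. The all-gene medians, in the same order, were -0.137, -0.194, -0.185 and -0.256. Of 22 further matricellular genes, 5 were tested, and 4 of these rose and none fell in each of the 4 comparisons with control. They were SPOCK1, CYR61 (CCN1), NOV (CCN3) and FSTL1, with differences of 1.01 to 1.76, 0.54 to 1.42, 0.63 to 1.98 and 0.76 to 1.22. The medians of this list were 0.83, 0.76, 1.22 and 1.09 for Ag2S and Li-doped Ag2S NPs at 160 μg/mL and then at 320 μg/mL. The lowest value for NOV, with Li-doped Ag2S NPs at 160 μg/mL, was 0.41 without control replicate 3 (adjusted p = 0.121), and its call was lost in 6 alternatives. FSTL1 lost its call in 6 alternatives with Ag2S NPs at 160 μg/mL, with 0.65 without control replicate 1 (adjusted p = 0.115), and in 3 with Li-doped Ag2S NPs at 160 μg/mL. Of 16 further elastic fiber genes, 8 were tested, and with Ag2S NPs 1 rose and none fell at 160 μg/mL while 4 rose and 1 fell at 320 μg/mL. The Li-doped particles gave 2 risen and 3 fallen at 160 μg/mL and 2 risen and 2 fallen at 320 μg/mL, or 2 and none with scaled libraries. The medians were 0.01 and 0.27 with Ag2S NPs at the lower and the higher dose, and -0.52 and -0.23 with Li-doped Ag2S NPs. FBLN1, fibulin-1, was like EFEMP1 lower with Li-doped Ag2S NPs at 160 μg/mL, by a log2 difference of -1.33 ± 0.12 (adjusted p = 3.23e-06). LTBP4 rose in the comparisons other than Ag2S NPs at 160 μg/mL, by 0.53 to 0.64. Of 36 other matrix glycoprotein genes, 16 were tested at 160 μg/mL and 15 at 320 μg/mL. At the lower dose 3 rose and 4 fell with Ag2S NPs, and 5 and 8 with Li-doped Ag2S NPs. At the higher dose the counts were 3 and 4, and 4 and 7. In the same order the medians were 0.04, -0.21, -0.1 and -0.33. With scaled libraries the counts were 6 and 4, 7 and 7, 5 and 4, and 7 and 7. MATN2, matrilin-2, fell in all 4 comparisons, by 0.85 to 2.21. NTN4 also fell in all 4, with differences of -0.46 to -1.21, and MFGE8 rose in all 4, by 0.64 to 1.12. At 160 μg/mL IGFBP3, a carrier of insulin-like growth factors, fell by 1.48 ± 0.07 with Ag2S NPs (adjusted p = 3.29e-07). With Li-doped Ag2S NPs at that dose it rose by 0.57 ± 0.07 (adjusted p = 3.32e-05). At 320 μg/mL it fell with both, with differences of -1.12 ± 0.06 (adjusted p = 1.12e-07) and -0.98 ± 0.06 (adjusted p = 3.1e-07).

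Among 14 receptor genes of the members, 8 were tested, and the all-gene shares and medians are those given above for the lists. ITGA5, the α5 chain of integrin α5β1, did not have values at both doses and was not tested. With Ag2S NPs 5 rose and 1 fell at 160 μg/mL, and 7 rose and 1 fell at 320 μg/mL. The Li-doped particles gave 4 risen and 3 fallen, and 5 and 1. The medians were 0.38 and 0.4 with Ag2S NPs at the lower and the higher dose, and 0.08 and 0.3 with Li-doped Ag2S NPs. With scaled libraries the counts were 6 and 1 (Ag2S NPs) and 4 and 2 (Li-doped) at 160 μg/mL, and 7 and 1 with either particle at 320 μg/mL. ITGB6, the β6 integrin chain of epithelia that binds fibronectin and latent TGF-β, had mean levels of 39.0 FPKM in control, 102 and 110 with Ag2S NPs at 160 and 320 μg/mL, and 18.5 and 50.1 with Li-doped Ag2S NPs. Like AMTN, it fell with Li-doped Ag2S NPs at 160 μg/mL, by 1.07 ± 0.09 (adjusted p = 2.85e-06), and rose in the other 3 comparisons. ITGB1, the β1 chain, rose in all 4, by 0.36 to 1.22. With Li-doped Ag2S NPs at 320 μg/mL the differences of ITGB6 and ITGB1 were 0.35 and 0.36, and 0.61 and 0.62 with scaled libraries. TGFB1, the ligand TGF-β1, rose from a mean of 24.2 FPKM in control to 47.6 and 51.3 with Ag2S NPs and 75.6 and 64.3 with Li-doped Ag2S NPs. TGM2, a transglutaminase that cross-links fibronectin, rose from 0.843 FPKM to 42.7 and 90.7 with Ag2S NPs and 16.2 and 55.0 with Li-doped Ag2S NPs.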

How the data were processed

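RNA of HaCaT cells from 5 groups of 3 libraries was sequenced as paired reads of 150 bases with a TruSeq kit that does not mark strand. Per the submitters' notes and the methods, the authors used TopHat, then Cufflinks 2.1.1, and Cuffdiff with its multi-read and fragment bias options, and deposited FPKM per gene and per transcript for each library, rounded to 2 decimals. Which genome build they used is not given in the sources used here. Their own comparisons in the same tables (group FPKM, log2 ratio, p-value and q-value) were not used. Every library column was matched to a sample by its label.

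FPKM values keep no read counts here, so the depth is unknown, and the error is the spread among the 3 libraries of a group. Genes whose FPKM averaged 1 or more were analyzed on log2(FPKM + 0.1) with limma 3.58.1 in R 4.3.3 (lmFit, eBayes with a trend, tests with 2 sides, Benjamini-Hochberg, adjusted p of 0.05), in 9 libraries per dose, or in all 15 for effects of dose and their difference between particles. With 3 libraries against 3, an exact permutation test cannot give a p below 0.1. In simulated data for Ag2S NPs at 160 μg/mL with 11863 genes, 85% of genes raised by 1 on the log2 scale and 37.5% of those raised by 0.5 were called. In that simulation 11663 genes were unchanged, while 1373 rose and 2847 fell in the real comparison. The adjustment of p therefore differs, and these shares do not give the power of the real tests.

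The members and lists were chosen with earlier results of these data known. The text names all 9 members, up to 4 genes per list with the smallest p with Ag2S NPs at 320 μg/mL among those past the threshold, 3 like genes per member, TGFB1 and TGM2. The like genes of TNC and FBN2 are not reported here. Markers of cell types came from fixed lists. Coordinates and exons are those of GENCODE release 29 on GRCh38, in which all gene identifiers were found. Sequence was read from RefSeq (promoters) and the transcript sequences of GENCODE release 29 (exon). The alternatives were other pseudocounts (1 and 0.01), filters (none, and a mean FPKM of at least 5), median-ratio scaling, other sets of libraries in the fit, robust moderation, library weights, the sum of transcript FPKM, and leaving out each library. Figures were drawn with matplotlib 3.10.9.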

Additional observations from a re-analysis of the deposited data

Results flagged for a closer look

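In 6 of the 8 tested members the change from the lower to the higher dose was not the same with both particles. This was a test of the difference itself (interaction in limma, Li-doped minus undoped, on the log2 scale), which 39.7% of all tested genes passed. The values were -1.4 for FN1, -2.85 for TNC, 0.3 for TGFBI, 4.18 for AMTN, -3.61 for THBS1 and 0.55 for EFEMP1. For FN1, TNC, THBS1 and AMTN the effect of dose passed the test with each particle and had opposite directions. TGFBI rose with dose with both particles. EFEMP1 rose with dose with Li-doped Ag2S NPs, and its effect with undoped Ag2S NPs was -0.17 ± 0.07 (adjusted p = 0.146).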

How the results depend on the processing

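The 9 counts of members that rose or fell stayed within 1.5 times under all 180 alternatives. With each library left out in turn they ran, for undoped and Li-doped particles against control and Li-doped against undoped, from 6 to 7 in each comparison at 160 μg/mL and from 7 to 8, 7 to 7 and 3 to 4 at 320 μg/mL. They ran from 5 to 6 and 6 to 7 for dose and from 5 to 6 for the interaction. Of 72 results of single members, 55 kept direction and call under every alternative. Calls were lost for SPARC with Li-doped Ag2S NPs at 160 μg/mL in 6 alternatives and for FBN2 with Ag2S NPs at 320 μg/mL in 8, and for the TGFBI interaction in 1. Calls were gained in 15 cases: EFEMP1 with Ag2S NPs at 160 μg/mL in 3 (adjusted p = 0.00639 with library weights) and between doses of Ag2S NPs in 1, AMTN for Li-doped against undoped at 320 in 1 (-0.48, adjusted p = 0.00962), and SPARC for Li-doped against undoped in 2 at each dose and for dose in 3 with each particle. The causes were not tested. Reversals were limited to differences that had not passed the test, except LTBP3. FBN2 gave -0.36 to 0.03 (Ag2S NPs at 160 μg/mL, 1 library left out, highest without replicate 6), 0.17 (Li-doped at 160, scaled) and -0.1 to 0.05 (1 library left out), -0.04 to 0.35 (Li-doped against undoped at 160, lowest without replicate 6) and 0.13 (Li-doped at 320, scaled). For Li-doped against undoped at 320 μg/mL, FN1 gave 0.02 (scaled), 0.1 (library weights) and -0.13 to 0.07 (1 library left out, with 0.00 and 0.07 without replicates 7 and 15), and THBS1 gave 0.06 (library weights). The SPARC interaction gave 0.06 (library weights), and -0.21 to 0.06 with 1 library left out, above 0 without replicates 12 and 14. Alternatives for the listed genes were chosen after seeing the data. LTBP3 gave 0.03 (Li-doped at 320, scaled). SDC4 gave 0.12 (scaled), 0.04 (weights) and -0.08 to 0.06 (1 library left out, highest without replicate 6) with Ag2S NPs at 160 μg/mL, and 0.23, 0.04 and -0.07 to 0.04 (highest without replicate 15) with Li-doped at 320.

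Risen and fallen transcripts of members numbered 15 with a mean FPKM of at least 5 (Li-doped at 160), in place of 23, since fewer were tested, and 8 to 14 with a library left out (Ag2S NPs at 160), in place of 15. Called elastic fiber genes numbered 2 (scaled), 5 (library weights) and 0 to 2 (library left out) for Ag2S NPs at 160 μg/mL, in place of 1. They numbered 8 with no filter and 4 to 6 with a library left out for Li-doped at 160, 3 with a mean of at least 5 and 3 to 5 with a library left out for Ag2S NPs at 320, and 2 (scaled) and 2 to 4 for Li-doped at 320. Called matricellular genes numbered 2 to 4 for Li-doped at 160 with a library left out. The estimate of library weights stopped before it converged. No paired analysis was possible because the 15 libraries carry 15 different replicate numbers, so that no number is shared between groups. Depth is unknown, and small differences of FBN1 and FBN2 are not detectable at these levels.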
